A study of Homo sapiens with 30 samples.

Results

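Genes for the making and release of extracellular vesicles were followed in human brain endothelial cells. They were the rows of the count table with 1 of 46 chosen gene symbols, and 47 of the 63138 genes of the table carried such a symbol, since VAMP7 had 2 gene IDs. The list was grouped into 5 tetraspanins, 21 genes of the ESCRT machinery, 5 genes of the syndecan and syntenin route, 3 sphingomyelinases, 2 flotillins and 10 Rab GTPases and SNARE proteins. RNA was sequenced in 30 libraries of hCMEC/D3, an immortalised cell line from the microvessels of human brain, in 10 groups of 3 libraries. In the direct groups the cells themselves were exposed for 12 h to serum-free medium alone (Control), to the cytokines TNFα at 25 ng/mL or IL-1β at 10 ng/mL, to the complement fragment C5a at 50 ng/mL or to the stress hormone epinephrine at 200 nM. In the vesicle groups, cells of the same line received for 12 h vesicles enriched from the supernatants of cells treated in those ways (EV-Control, EV-TNFα, EV-IL-1β, EV-C5a and EV-Epinephrine). All values are RNA levels of the treated cells, so those of the vesicle groups belong to the cells that received vesicles and not to the vesicles or to the cells that released them. The amount of vesicles given and the number released were not analysed here. The labels do not say whether the 3 libraries of a group came from separate cultures, so the p-values measure the spread between these libraries, which may be technical.

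Small vesicles leave a cell by budding from its surface or by fusion of multivesicular endosomes, whose inner vesicles are then released as exosomes. The ESCRT complexes sort cargo and cut the inner vesicles off, syntenin with syndecans and ALIX (PDCD6IP) forms a branch of this route, and ceramide made by neutral sphingomyelinases supports a route that needs less of the ESCRT machinery. Rab GTPases and SNARE proteins carry the endosomes to the plasma membrane and fuse them with it, and the tetraspanins CD9, CD63 and CD81 are cargo that is widely used to recognise vesicles.

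Library totals ran from 16643961 to 22112326 counts, and a count of 0 allows up to 3 counts, or 0.136 to 0.18 CPM (counts per 1000000 counts), in a library. CPM were scaled by library totals times trimmed mean of M-values (TMM) factors. Biological coefficients of variation were 0.0553 (direct libraries) and 0.05 (vesicle libraries), and the libraries farthest from the rest of their group were replicate 2 of epinephrine and replicate 1 of EV-Control. The endothelial markers PECAM1, CDH5, VWF and CLDN5 were detected in every group, CLDN5 at group means of 15.1 to 47.6 CPM. The whole endothelial list summed to 1560 to 1600 CPM in Control, 1660 to 1710 in TNFα and 1160 to 1190 CPM in IL-1β libraries. Sums were 1230 to 1270 CPM in C5a, 1330 to 1410 in epinephrine and 1100 to 1160 CPM in EV-Control libraries. The other vesicle groups lay within 1110 to 1260 CPM. The neuronal markers summed to at most 5.73 CPM in any library. Of the 4 astrocyte markers, AQP4 was at 0 in all libraries, SLC1A3 and ALDH1L1 had group means of at most 0.27 and 0.647 CPM, and GFAP had 1.49 to 4.45 CPM. Of the 4 markers of blood cells and microglia, PTPRC reached a group mean of 1.3 CPM and CD68, AIF1 and CX3CR1 at most 0.281 CPM, and the epithelial genes EPCAM and CDH1 were under 0.2 CPM. Of the 4 pericyte markers, KCNJ8 and ABCC9 were at or near 0, RGS5 had group means of 5.37 to 9.88 CPM and PDGFRB of 35.1 to 84.8 CPM, so that the summed level was 74.1 to 79.7 CPM in Control libraries and 40.3 to 40.6 CPM in TNFα libraries. The 4 epithelial markers, nearly all KRT18, summed to 246 to 268 CPM in Control and 152 to 162 CPM in TNFα libraries. The part of these shifts in the results was not tested. In RNA of whole cultures, fewer cells that express a gene and less RNA of it per cell cannot be told apart.

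Most of the vesicle genes were well expressed. Over the 30 libraries 42 of them had a mean of at least 5 CPM. The ratio of the highest to the lowest of their 10 group means ran from 1.09 for YKT6 to 3.66 for CD82, with a median of 1.29, and it was under 1.5 for 31 of them. A ratio of 2 or more was found for 6 genes, CD82, SDC1, SMPD2, SDC4, SDCBP and SMPD1. The same ratio was not computed over all genes, so these values do not show whether the list moved less than other genes.

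Levels of different genes were compared per length. Per kilobase of merged exons, CD63 was the highest of the list with a mean of 147 CPM per kilobase over the 30 libraries, followed by CD9 at 137, by RAB7A, a GTPase of late endosomes, at 101, by the cell surface proteoglycan SDC4 at 99.5 and by the ESCRT-III subunit CHMP4B at 93.7. The marker tetraspanin CD81 stood at 32.1 and ALIX at 28.7 CPM per kilobase. The order depends on the merged length, which covers every annotated exon and may exceed that of the RNA present. It was 7394 bases for CD81 and 9038 for PDCD6IP, but 2633 for CD63 and 2613 for SDC4. Before division by length CD81 had a mean of 237 CPM and SDC4 of 260 CPM. Of the paired GTPases that dock multivesicular endosomes, RAB27A was at 12.2 and RAB27B at 1.26 CPM per kilobase. The neutral sphingomyelinase SMPD2 was at 5.09 and the acid sphingomyelinase SMPD1 at 20 CPM per kilobase. SMPD3, which encodes the neutral sphingomyelinase 2 most often tied to exosomes, was at 0.0417 CPM per kilobase, with at most 13 counts in any library. CHMP4A was also low, at 0.479 CPM per kilobase, but 2304 of its 2413 exon bases lie in other annotated genes of the same strand, so its count is uncertain.

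**Figure D1:**
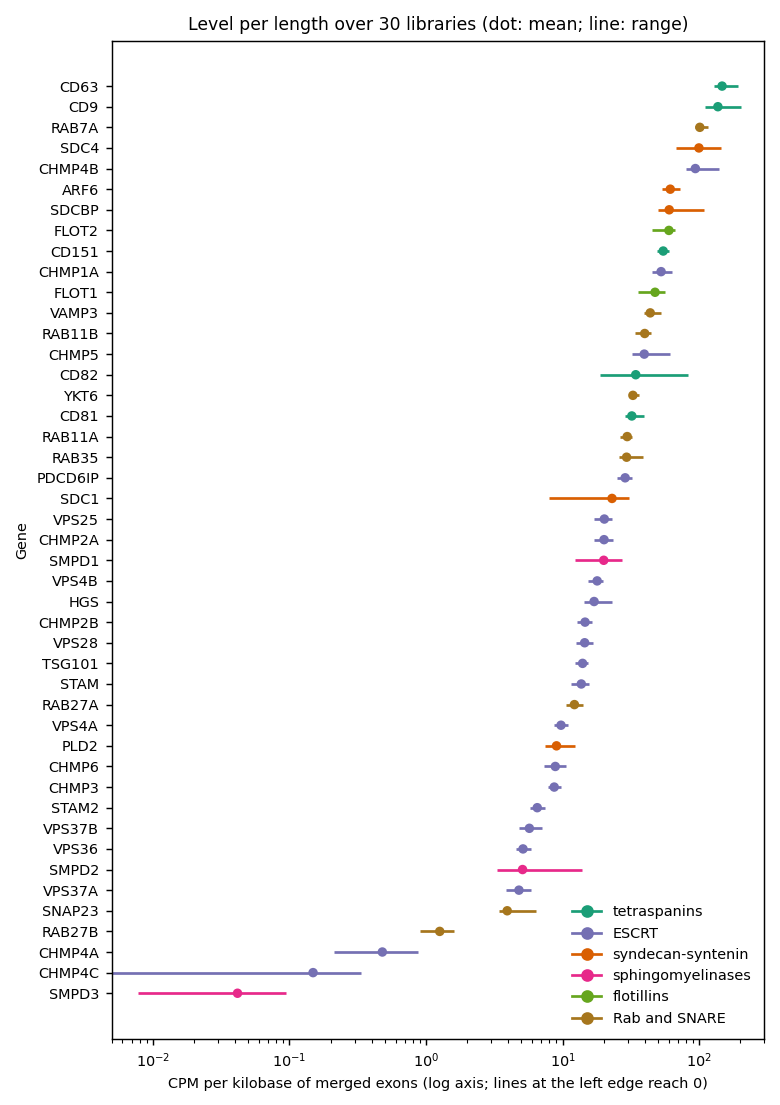
Level per length of 45 of the 46 genes, in CPM per kilobase of merged exons on a log axis. Dots are means and lines the range over the 30 libraries, coloured by family; CD63, CD9 and RAB7A lie above 100 and SMPD3 lies lowest at 0.0417.

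Of the 46 genes, 43 passed the filter on low counts among the direct and among the vesicle libraries. SMPD3 failed it, as did CHMP4C, an ESCRT-III subunit with at most 12 counts in a library, although CHMP4C passed in the fit of all 30 libraries. VAMP7, a SNARE of late endosomes, had at most 2 counts in any library under one of its IDs and 0 under the other. VAMP7 lies in a pseudoautosomal region, and 15 of the 18 protein-coding genes annotated in both such copies had a count of 0 in all libraries, the highest count of the other genes being 3. No statement on VAMP7 expression is made from these counts.

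TNFα changed the largest number of the vesicle genes among the direct stimuli. Here a gene is said to rise or fall when edgeR's quasi-likelihood test gave a Benjamini-Hochberg adjusted p under 0.05 over all genes of the fit. In TNFα against Control 23 of the 43 genes tested changed, which is 53.5% of them beside 52.7% of all 15908 genes tested. There were 19 higher genes (27.5% of all genes were higher) and 4 lower ones (25.3% of all genes). Their median absolute log2 fold change was 0.147, against 0.344 over all genes, and among genes of at least 5 CPM it was 0.145 against 0.279. The number of changed vesicle genes was thus near the background share.

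The split between higher and lower genes in TNFα cells rested on the scaling. TMM factors of the TNFα libraries were 0.842 to 0.861, and scaling by total counts moved the median log2 fold change of all genes from -0.012 to -0.288. With total counts 9 vesicle genes were higher and 24 lower, in place of 19 and 4. Changes are therefore given relative to the TMM scaling. Under TMM factors, relative log expression factors and total counts alike, 9 of the 19 higher genes (CD82, CHMP4B, CHMP5, HGS, RAB35, SDC4, SDCBP, SMPD2 and VPS37A) and all 4 lower genes (FLOT1, FLOT2, SDC1 and SMPD1) passed in the same direction.

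IL-1β changed 17 of the 43 genes (39.5%, beside 46.6% of all genes), 6 higher (24% of all genes) and 11 lower (22.6%), and all 17 passed in the same direction under the 3 scalings. With total counts the split was 6 and 18. C5a changed 12 genes (27.9%, beside 22.6%), none higher (11.8% of all genes) and 12 lower (10.8%). Of the 12, 10 passed under all 3 scalings, all but CHMP2B and VAMP3. Epinephrine changed 7 genes (16.3%, beside 25.2%), 2 higher (13.5% of all genes) and 5 lower (11.8%). The epinephrine count moved with the settings. It was 12 (3 higher, 9 lower) without replicate 2 of that group, 11 (2 and 9) with total counts, 11 with relative log expression factors, 13 with a mean count of at least 50 and 12 in the fit of all 30 libraries. The 4 direct comparisons share the Control libraries, so their results are not independent of each other.

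Vesicles of TNFα, IL-1β and epinephrine treated cells changed 8 to 10 of these genes each, and those of C5a treated cells none. EV-TNFα against EV-Control changed 8 of 43 genes (18.6%, beside 13.3% of all 15918 genes tested), 1 higher (5.9% of all genes) and 7 lower (7.42%). EV-IL-1β changed 9 genes (20.9%, beside 14.6%), none higher (6.49%) and 9 lower (8.14%), and with total counts 1 and 6. EV-Epinephrine changed 10 genes (23.3%, beside 19.7%), 2 higher (9.12%) and 8 lower (10.5%). EV-C5a changed none of the 43 (0.0503% of all genes, 8 of 15918, changed, 0.0126% higher and 0.0377% lower), with 2 of the 43 at an unadjusted p under 0.05 in edgeR and none changed in DESeq2. Fits of only the groups compared gave 5 changed genes for EV-TNFα and 5 for EV-IL-1β. The 4 comparisons share the EV-Control libraries.

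In each of the 4 direct comparisons with Control, large changes took a smaller share of the vesicle genes than of all genes. An adjusted p under 0.05 together with an absolute log2 fold change above 0.5 was reached by 8 of the 43 genes in TNFα (18.6%, beside 27.7% of all genes), 4 in IL-1β (9.3%, beside 20%), 1 in C5a (2.33%, beside 6.11%) and 1 in epinephrine cells (2.33%, beside 6.31%) against Control. Against EV-Control it was reached by 0 genes in EV-TNFα (4.01% of all genes), 0 in EV-IL-1β (4.18%), 0 in EV-C5a (0.0126%) and 1, SDC4, in EV-Epinephrine cells (2.33%, beside 5.64%). Between EV-Control and Control there was none (6.24%). Between IL-1β and TNFα there were 8 (18.6%, beside 17.2%), close to the share of all genes, and between epinephrine and C5a none (4.98%). The list holds fewer genes of low level than the table. In TNFα against Control 42 of the 43 reached 5 CPM in the higher group, beside 10890 of all 15908 genes. The shares were not computed among genes of at least 5 CPM.

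**Figure D2:**
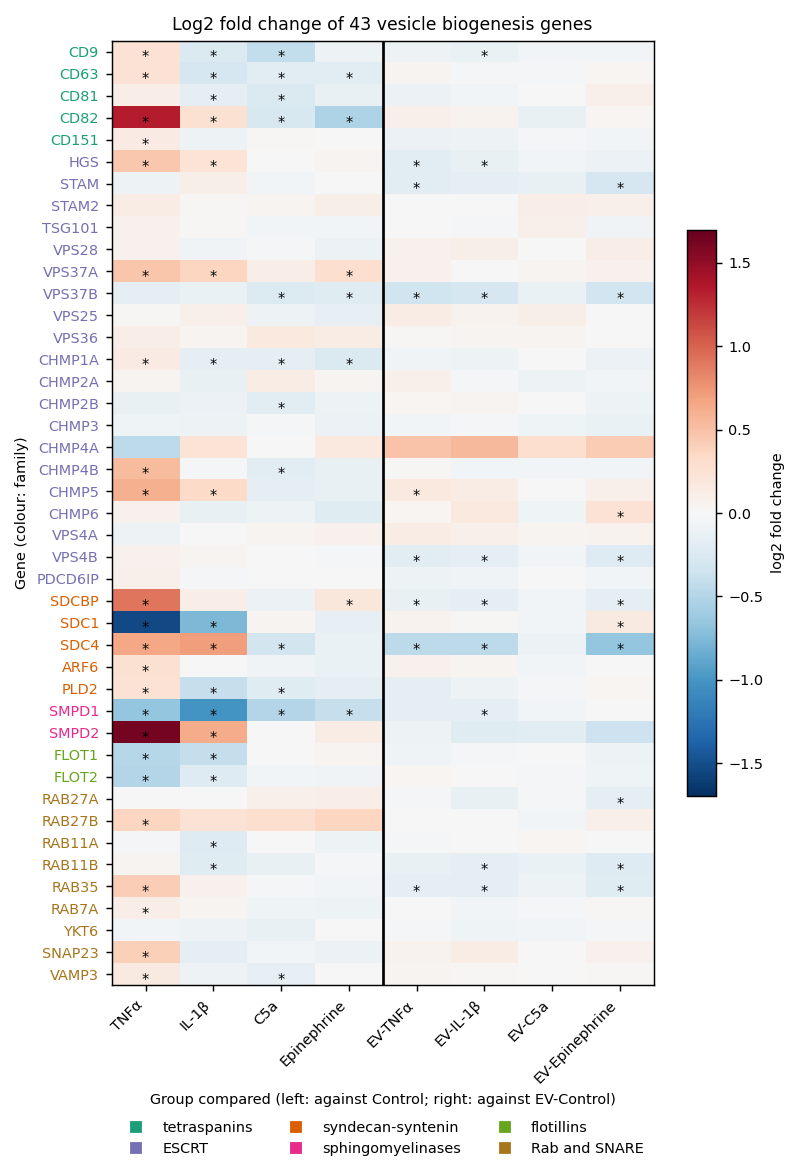
Log2 fold change of the 43 genes tested, rows coloured by family, for the 4 direct stimuli against Control (left) and the 4 vesicle groups against EV-Control (right). Stars mark an adjusted p under 0.05 in edgeR; the strongest colours are those of SMPD2 (1.63), SDC1 (-1.54) and CD82 (1.34) in TNFα cells, and of the pale rises in TNFα cells those of CD9, CD63, CD151, CHMP1A, RAB7A, VAMP3, ARF6 and PLD2 turn negative when libraries are scaled by total counts.

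Tetraspanins, membrane proteins that organise the surface of vesicles, went different ways with the stimulus. CD82, a tetraspanin known from studies of metastasis, stood apart from the other members. It was at 125, 130 and 130 CPM in the Control libraries and at 321, 336 and 318 CPM in the TNFα libraries, so that the groups were far from overlapping. CD82 rose by 1.34 on the log2 scale in TNFα cells (SE 0.061, edgeR adjusted p = 2.8e-18), and the rise was between 1.06 and 1.35 under all 14 alternative settings. In IL-1β cells CD82 was at 155, 149 and 154 CPM and its log2 fold change was 0.26 (SE 0.061, edgeR adjusted p = 0.000787). In epinephrine cells it was at 76.5, 99.7 and 90.4 CPM, all under the Control libraries, with a log2 fold change of -0.52 (SE 0.062, edgeR adjusted p = 1.55e-07). C5a gave -0.27 (SE 0.062). In the vesicle groups every CD82 library lay between 105 and 126 CPM and no comparison with EV-Control passed.

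CD9, CD63 and CD81, the tetraspanins most used as vesicle markers, were less changed. CD9 was at 702, 675 and 701 CPM in Control, 804, 846 and 814 in TNFα, 599, 578 and 578 in IL-1β, 514, 509 and 525 in C5a and 582, 715 and 660 CPM in epinephrine libraries. The TNFα libraries were thus above and the IL-1β and C5a libraries below all Control libraries, while epinephrine overlapped Control. CD9 fell in C5a cells with a log2 fold change of -0.42 (SE 0.049, edgeR adjusted p = 3.96e-08) and in IL-1β cells with -0.24 (SE 0.049). Its value in TNFα cells was 0.24 (SE 0.048, edgeR adjusted p = 5.55e-05) with TMM factors and -0.03 when scaled by total counts, where it no longer passed.

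CD63 was at 407, 407 and 443 CPM in Control, 488, 498 and 505 CPM in TNFα and 339, 342 and 340 CPM in IL-1β libraries. It fell in IL-1β cells with a log2 fold change of -0.29 (SE 0.061, edgeR adjusted p = 0.000357), and its value in TNFα cells was 0.25 with TMM factors and -0.03 with total counts. Its falls in C5a and epinephrine cells, both -0.19 (SE 0.061), had edgeR adjusted p-values of 0.0311 and 0.0258 and in epinephrine overlapped the Control libraries. The first was lost without Control replicate 1 or 3 or C5a replicate 1 or 3 (-0.14 to -0.20). The second was lost in 4 of 14 alternatives, among them those without Control replicate 3 or epinephrine replicate 1 or 3 (-0.13 to -0.15). CD81 fell by 0.17 in IL-1β and by 0.25 in C5a cells on the log2 scale (SE 0.052 in both), and the IL-1β call was lost without Control replicate 2 (-0.14, edgeR adjusted p = 0.0576). Epinephrine replicate 2 was the highest of its group for these 3 markers, at 715 CPM of CD9, 419 of CD63 and 262 of CD81. Without it CD9 gave -0.14 and CD81 -0.22 against Control, and both passed, which neither did in the main test with all libraries. CD81 passed in 7 of 14 alternatives. Among them were relative log expression factors (-0.14), total counts (-0.14), a mean count of 50 (-0.15) and a replicate term (-0.13).

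In cells given vesicles, the comparison of EV-IL-1β with EV-Control lowered CD9 by 0.11 (SE 0.034, edgeR adjusted p = 0.019), which was lost in 5 of 14 alternatives, among them DESeq2. No other vesicle comparison with EV-Control passed for CD9, CD63 or CD81. With TMM factors CD151, a partner of laminin-binding integrins, passed only in TNFα cells among the 8 stimulus comparisons, at 0.14. With total counts it gave -0.14 there and -0.16 in IL-1β cells, and both passed.

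**Figure D3:**
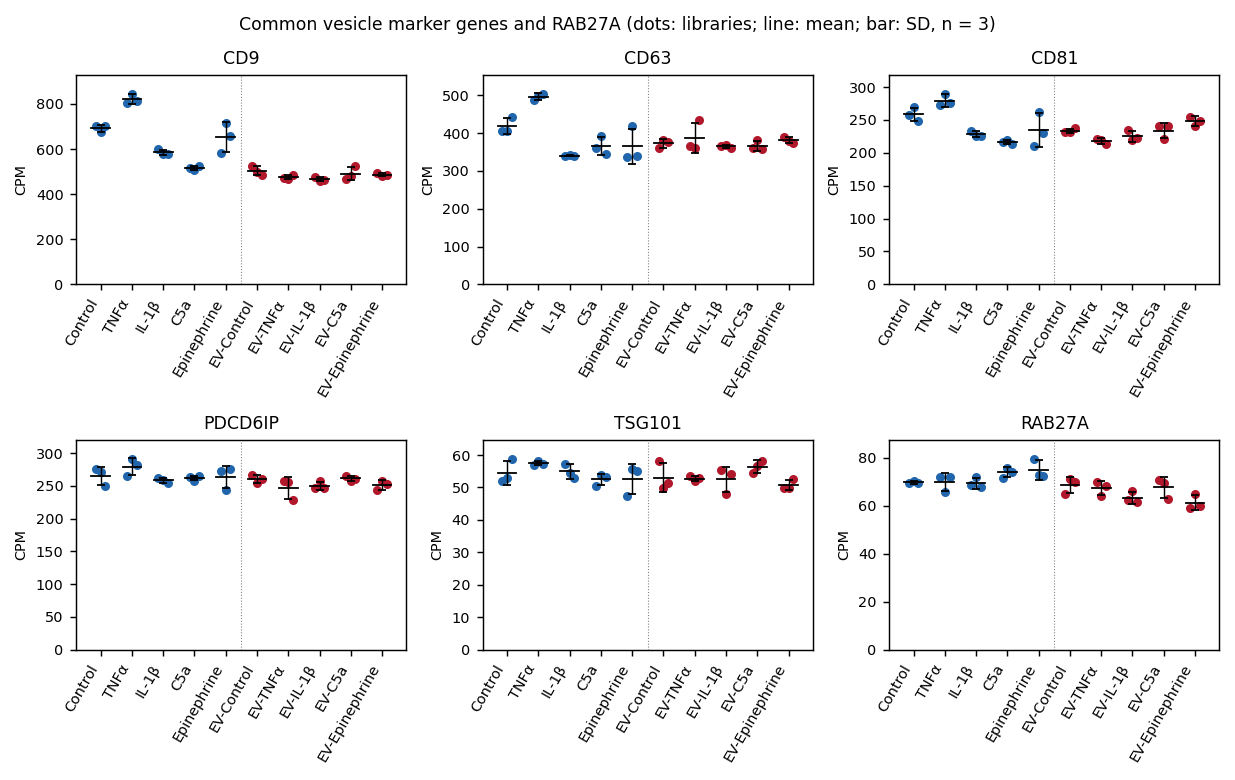
CPM of CD9, CD63, CD81, PDCD6IP, TSG101 and RAB27A in every library (dots), with group mean and SD (lines and bars, n = 3); direct groups are blue and vesicle groups red. The 3 tetraspanins vary between direct groups, while PDCD6IP and TSG101 stay within 228 to 291 and 47.4 to 58.8 CPM.

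Of the 20 ESCRT genes tested, 10 passed in at least 1 of the 8 stimulus comparisons and 10 in none, while 25.6% of the 15450 genes tested in both fits passed in none. Among the 10 in none were the 2 that serve as vesicle markers, the ESCRT-I subunit TSG101 and the accessory protein ALIX (PDCD6IP). TSG101 was at 52.1, 52.8 and 58.8 CPM in Control and 56.9, 58.1 and 57.3 CPM in TNFα libraries, with a log2 fold change of 0.07 (SE 0.065) that turned to -0.20 with total counts and then passed (edgeR adjusted p = 0.00676). PDCD6IP was at 275, 271 and 250 CPM in Control and 265, 291 and 282 CPM in TNFα libraries, at 0.08 (SE 0.049) and, with total counts, -0.20 (edgeR adjusted p = 0.000392). Both pairs of groups overlapped. The other genes without a call were STAM2 (ESCRT-0), VPS28 (ESCRT-I), VPS25 and VPS36 (ESCRT-II), CHMP2A, CHMP3 and CHMP4A (ESCRT-III) and VPS4A, an ATPase that takes ESCRT-III apart.

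TNFα raised 5 ESCRT genes and lowered none with TMM factors, and with total counts 4 were higher and 12 lower. The 4 that rose under all scalings belonged to ESCRT-0 (HGS), ESCRT-I (VPS37A) and ESCRT-III (CHMP4B and CHMP5). HGS, the ESCRT-0 subunit that binds ubiquitinated cargo, was at 143, 137 and 120 CPM in Control and 180, 183 and 189 CPM in TNFα libraries, a log2 fold change of 0.46 (SE 0.052). CHMP4B, the main building block of the ESCRT-III filament, went from 153, 153 and 160 to 220, 229 and 227 CPM (0.54, SE 0.05). CHMP5, a regulatory ESCRT-III subunit, went from 90.6, 89.5 and 97.2 to 147, 141 and 136 CPM (0.61, SE 0.06). None of these groups overlapped. VPS37A, an ESCRT-I subunit, was at 27.3, 29.7 and 26 CPM in Control and 39.8, 38.3 and 37.3 CPM in TNFα libraries (0.47, SE 0.073). Its exons share 772 bases with genes on the other strand, of which MTMR7 also rose, from 3.75 to 9.08 CPM, and the strand setting of the counting is not given in the sources used here. HGS likewise shares 1938 exon bases with genes on the other strand, among them ARL16 at 27.5 and 25.3 CPM.

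IL-1β raised HGS (0.23), CHMP5 (0.32) and VPS37A (0.37) as well, and VPS37A also rose in epinephrine cells (0.29, SE 0.073), where its libraries were at 33.6, 32 and 35 CPM. CHMP1A, an ESCRT-III subunit, was at 180, 185 and 182 CPM in Control and lower in IL-1β (166, 158 and 162 CPM), C5a (161, 159 and 161 CPM) and epinephrine libraries (144, 161 and 156 CPM), without overlap. Its log2 fold changes were -0.16, -0.17 and -0.24 (SE 0.045 in each). In TNFα cells CHMP1A gave 0.14 with TMM factors and -0.13 with total counts. VPS37B, another ESCRT-I subunit, fell in C5a (-0.23) and epinephrine cells (-0.21), and CHMP4B (-0.18) and CHMP2B (-0.19) fell in C5a cells.

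Among vesicle recipients VPS37B was lower after 3 of the 4 vesicle types. It was at 42.1, 42.2 and 35.7 CPM in EV-Control, 33.6, 30.7 and 30.7 in EV-TNFα, 34.3, 31.6 and 32.2 in EV-IL-1β, 30.9, 31.8 and 33 in EV-Epinephrine and 35.7, 40.3 and 35.2 CPM in EV-C5a libraries. Only EV-C5a overlapped EV-Control. The log2 fold changes were -0.34 (SE 0.072) in EV-TNFα, -0.29 (SE 0.073) in EV-IL-1β and -0.32 (SE 0.073) in EV-Epinephrine, and these 3 passed under each of their 14 alternatives. Of the 5953 exon bases of VPS37B, 1658 are shared with an annotated gene of the same strand and 484 with one of the other strand. Its counts are therefore uncertain in all groups, and the part of these neighbours was not tested. VPS4B, the second VPS4 ATPase, was at 83, 80.9 and 77.6 CPM in EV-Control and at 68.6 to 73.1 CPM in EV-TNFα, 68.9 to 74.6 in EV-IL-1β and 66.3 to 71.2 CPM in EV-Epinephrine libraries, with log2 fold changes of -0.19, -0.16 and -0.22 (SE 0.051 in each). HGS fell by 0.18 in EV-TNFα and by 0.12 in EV-IL-1β cells, the latter with overlapping libraries. With total counts the EV-IL-1β calls of VPS4B (-0.14) and HGS (-0.11) were lost. STAM, the partner of HGS in ESCRT-0, was at 48.5, 50.6 and 48.6 CPM in EV-Control and at 38.2, 41.7 and 40.8 CPM in EV-Epinephrine libraries (-0.29, SE 0.063, edgeR adjusted p = 0.000439).

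CHMP5 was the 1 gene of the list that rose in EV-TNFα cells (0.17, SE 0.049). CHMP6, which starts ESCRT-III assembly, rose in EV-Epinephrine cells from 16.7, 17.2 and 17.4 CPM to 21.3, 20.2 and 19.5 CPM. Its log2 fold change of 0.25 (SE 0.091, edgeR adjusted p = 0.0407) was lost in 10 of 14 alternatives, among them DESeq2, no filter on low counts and leaving out any 1 of the 6 libraries.

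Of the syndecan and syntenin genes, SDC1, SDC4 and SDCBP had absolute log2 fold changes above 0.5 in TNFα cells, and ARF6 and PLD2 had smaller ones. Syndecans are membrane proteoglycans whose tails bind syntenin (SDCBP), which in turn binds ALIX, and the GTPase ARF6 with its effector phospholipase D2 (PLD2) feeds this route. The bases before the starts of both syndecan genes and of SMPD1 are shown here because these 3 genes changed in opposite directions with the cytokines. The windows run 5′ to 3′ on the gene's strand, come from RefSeq promoters of GRCh38.p14, and were searched on both strands, over the 250 bases before each start, for 4 motifs (the kappaB consensus of the factor NF-kappaB, which both cytokines are known to activate; the AP-1 site TGANTCA; the cAMP response element TGACGTCA; the E-box CACGTG). Capitals mark a match, and the matches shown are to the kappaB consensus. SDC4 lies on the minus strand at chr20:45348425-45348674 before its start, SDC1 on the minus strand at chr2:20225476-20225725 and SMPD1 on the plus strand at chr11:6390224-6390430, each ending before the gene as GENCODE 29 gives it. The SMPD1 window is therefore 207 bases long.
SDC4: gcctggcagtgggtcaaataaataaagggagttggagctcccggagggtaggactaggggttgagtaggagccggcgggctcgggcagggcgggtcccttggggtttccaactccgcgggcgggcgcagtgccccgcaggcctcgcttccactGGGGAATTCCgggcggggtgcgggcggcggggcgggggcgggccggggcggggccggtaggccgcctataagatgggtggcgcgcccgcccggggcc
SDC1: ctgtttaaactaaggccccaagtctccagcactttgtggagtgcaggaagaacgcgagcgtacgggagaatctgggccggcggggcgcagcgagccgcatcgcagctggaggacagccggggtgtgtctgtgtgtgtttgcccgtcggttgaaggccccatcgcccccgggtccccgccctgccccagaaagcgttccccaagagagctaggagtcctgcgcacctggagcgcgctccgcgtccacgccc
SMPD1: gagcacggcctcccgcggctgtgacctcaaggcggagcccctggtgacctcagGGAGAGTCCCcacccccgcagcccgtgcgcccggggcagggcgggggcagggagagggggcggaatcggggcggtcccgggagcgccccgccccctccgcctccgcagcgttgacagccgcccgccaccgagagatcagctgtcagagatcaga

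The kappaB match began at position -97 from the RefSeq start of SDC4 and at -197 from that of SMPD1, and the SDC1 window held none of the 4 motifs. A kappaB match was found in 5.05% of all 27305 promoter windows and in 4 of the 37 windows matched to vesicle genes (CHMP2A, SDC4, SMPD1 and STAM). Of these 4, SDC4 rose, SMPD1 fell and CHMP2A and STAM passed in neither cytokine comparison. The AP-1 site was in 6.6% of all windows and in those of CD63 and FLOT2. The cAMP response element was in 1.77% of all windows and in that of VPS37B, and the E-box was in 6.49% and in those of CD63, CHMP4A, PDCD6IP and VPS37B. A match is a description of the letters only.

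SDC1 (ENSG00000115884, chromosome 2, 20200797 to 20225433) had the largest fall of the list. Its CPM were 95.3, 79.8 and 88.1 in Control, 29, 32.8 and 28.5 in TNFα and 50.6, 50.6 and 51.7 in IL-1β libraries, so the 3 groups did not overlap. The log2 fold change was -1.54 (SE 0.066, edgeR adjusted p = 6.93e-21) in TNFα and -0.77 (SE 0.062, edgeR adjusted p = 9.14e-13) in IL-1β cells, and the 2 cytokines differed by 0.77 (SE 0.068, edgeR adjusted p = 1.04e-11), IL-1β higher. C5a and epinephrine libraries were at 87.1 to 92.5 and 78.3 to 79.9 CPM and did not pass against Control. Every vesicle library of SDC1 lay between 89.9 and 110 CPM. EV-Epinephrine cells, at 105, 103 and 110 CPM, were slightly above EV-Control at 98.6, 90.2 and 97.6 CPM (0.15, SE 0.046, edgeR adjusted p = 0.0142).

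SDC4 (ENSG00000124145, chromosome 20, 45325288 to 45348424) moved the other way in the cytokine groups. It was at 230, 225 and 228 CPM in Control, 350, 366 and 363 in TNFα, 369, 376 and 368 in IL-1β, 177, 187 and 185 in C5a and 193, 214 and 221 CPM in epinephrine libraries. Both cytokine groups lay above all Control libraries and C5a and epinephrine below them. The log2 fold change was 0.66 (SE 0.046, edgeR adjusted p = 7.42e-15) in TNFα, 0.71 (SE 0.046, edgeR adjusted p = 2.55e-15) in IL-1β and -0.31 (SE 0.046, edgeR adjusted p = 3.79e-06) in C5a cells. Epinephrine gave -0.11 (SE 0.046, edgeR adjusted p = 0.0636), which did not pass, but it did in 6 of 14 alternatives, with the other scalings, a mean count of 50, DESeq2 and without epinephrine replicate 2 (-0.13) or 3 (-0.15). IL-1β did not pass against TNFα (0.05, SE 0.045) with TMM factors but did with total counts (0.25).

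In vesicle recipients SDC4 was at 369, 293 and 267 CPM in EV-Control, 225, 231 and 228 in EV-TNFα, 220, 229 and 230 in EV-IL-1β, 285, 285 and 295 in EV-C5a and 200, 189 and 200 CPM in EV-Epinephrine libraries. Replicate 1 of EV-Control stood far above its group, yet all EV-TNFα, EV-IL-1β and EV-Epinephrine libraries lay below the lowest EV-Control library. SDC4 was 0.44 higher in EV-Control than in Control on the log2 scale (SE 0.069, edgeR adjusted p = 2.85e-05), and the EV-TNFα and EV-IL-1β libraries lay within 220 to 231 CPM, around the 225 to 230 CPM of Control. Against EV-Control the log2 fold change was -0.44 (SE 0.091, edgeR adjusted p = 0.00885) in EV-TNFα, -0.45 (SE 0.091, edgeR adjusted p = 0.00725) in EV-IL-1β and -0.66 (SE 0.092, edgeR adjusted p = 0.00045) in EV-Epinephrine cells. Without EV-Control replicate 1 these values were -0.30, -0.31 and -0.51 and EV-Control against Control was 0.30, and all 4 still passed. With only the 2 groups compared in the fit, the edgeR adjusted p was 0.156 in EV-TNFα, 0.148 in EV-IL-1β and 0.0967 in EV-Control against Control.

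SDCBP (ENSG00000137575), the gene of syntenin, was at 255, 256 and 283 CPM in Control and at 493, 516 and 482 CPM in TNFα libraries. It rose by 0.91 on the log2 scale (SE 0.047, edgeR adjusted p = 1.72e-18), and it was among the 9 genes that rose under all scalings. IL-1β libraries, at 296, 288 and 267 CPM, overlapped Control (0.11, SE 0.047, edgeR adjusted p = 0.0556). Epinephrine raised SDCBP to 290, 311 and 297 CPM (0.19, SE 0.047, edgeR adjusted p = 0.00249). In vesicle recipients EV-Control libraries were at 297, 261 and 270 CPM, replicate 1 again highest, and the log2 fold changes were -0.13 (SE 0.039) in EV-TNFα, -0.17 (SE 0.039) in EV-IL-1β and -0.15 (SE 0.039) in EV-Epinephrine cells. Without EV-Control replicate 1 the values in EV-TNFα (-0.08) and EV-Epinephrine (-0.09) no longer passed. The EV-TNFα call was lost in 6 of 14 alternatives, also with DESeq2, with EV-TNFα and EV-Control fitted alone, with all 30 libraries fitted together, and without EV-TNFα replicate 1 (-0.13) or 2 (-0.12).

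ARF6 was at 229, 230 and 237 CPM in Control and 276, 275 and 280 CPM in TNFα libraries, a log2 fold change of 0.26 (SE 0.042) with TMM factors and -0.02 with total counts. It passed in no other stimulus comparison with TMM factors. In epinephrine cells ARF6 gave -0.11 with TMM factors, and it passed at -0.12 with relative log expression factors and with total counts. PLD2 was at 47.3, 51.7 and 45 CPM in Control and fell to 36.6, 36.3 and 36.5 CPM in IL-1β (-0.39, SE 0.066) and to 41.2, 40.9 and 41.4 CPM in C5a libraries (-0.21, SE 0.066). In TNFα cells PLD2 gave 0.24 with TMM factors and -0.03 with total counts.

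**Figure D4:**
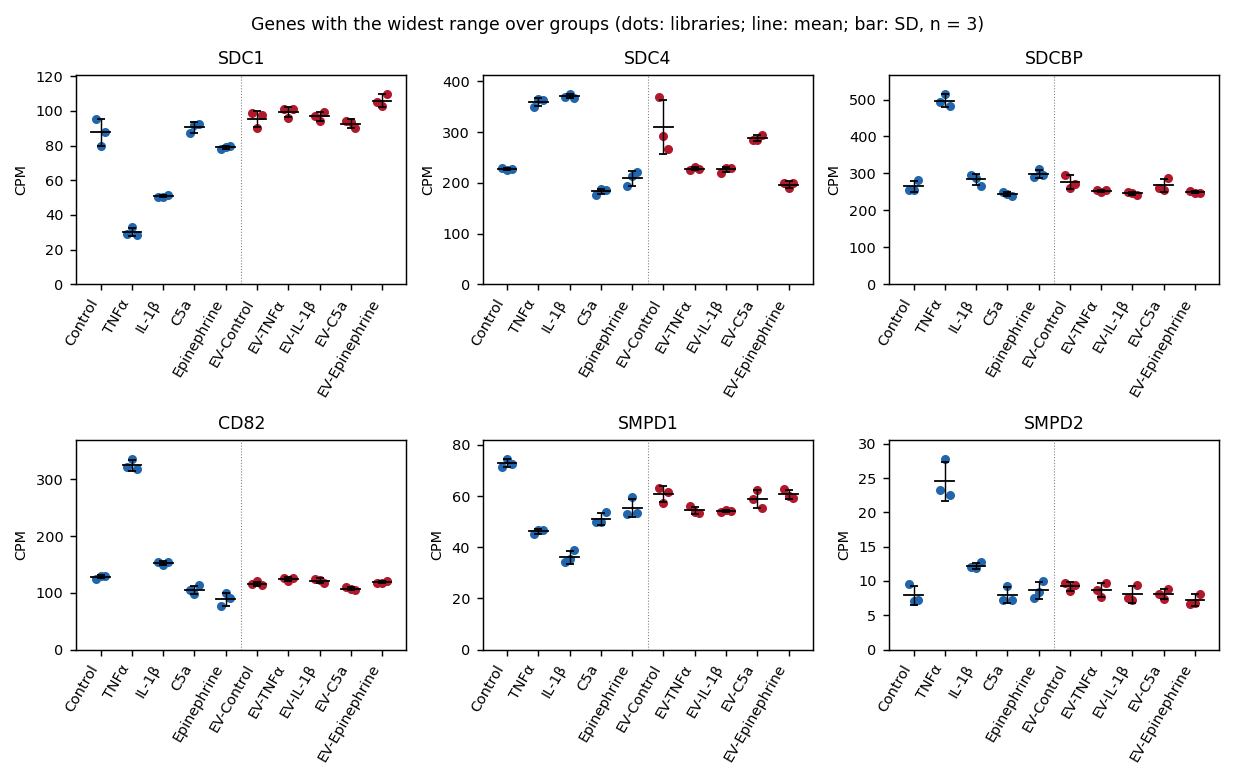
CPM of the 6 genes with the widest range over groups, SDC1, SDC4, SDCBP, CD82, SMPD1 and SMPD2, in every library (dots), with group mean and SD (lines and bars, n = 3); direct groups are blue and vesicle groups red. SDC1 is lowest in TNFα (28.5 to 32.8 CPM), SDC4 is high in both cytokine groups and in EV-Control replicate 1, and SMPD2 is highest in TNFα (22.6 to 27.8 CPM).

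The sphingomyelinases, which split sphingomyelin into ceramide, went in opposite directions under the cytokines. SMPD2 (ENSG00000135587, chromosome 6, 109440763 to 109443919), a neutral sphingomyelinase, was at 9.51, 7.04 and 7.25 CPM in Control, 23.2, 27.8 and 22.6 in TNFα and 12.1, 11.9 and 12.7 CPM in IL-1β libraries, with no overlap between the 3 groups. Its log2 fold change of 1.63 in TNFα cells (SE 0.13, edgeR adjusted p = 2.3e-13) was the largest rise of the list, and IL-1β gave 0.63 (SE 0.13, edgeR adjusted p = 0.000187). SMPD2 shares 409 exon bases with PPIL6 on the other strand, whose mean was 0.217 CPM in Control and 0.19 CPM in TNFα cells. SMPD2 libraries of the other 7 groups lay between 6.64 and 9.96 CPM.

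SMPD1 (ENSG00000166311, chromosome 11, 6390431 to 6394998), the acid sphingomyelinase of lysosomes, fell under all 4 direct stimuli. It was at 71.4, 74.5 and 72.7 CPM in Control, 45.2, 46.6 and 46.7 in TNFα, 34.2, 35.2 and 38.9 in IL-1β, 49.7, 49.8 and 53.7 in C5a and 53.1, 59.5 and 53.5 CPM in epinephrine libraries. No treated library reached the lowest Control library. The log2 fold changes were -0.66 (SE 0.063) in TNFα, -1.01 (SE 0.064) in IL-1β, -0.50 (SE 0.062) in C5a and -0.39 (SE 0.062) in epinephrine cells, with edgeR adjusted p-values of 4.08e-11, 2.47e-15, 1.2e-07 and 9.4e-06. In vesicle recipients every library lay between 53.5 and 63.1 CPM. EV-IL-1β gave -0.16 (SE 0.056, edgeR adjusted p = 0.0403), which was lost in 10 of 14 alternatives.

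Flotillins, scaffold proteins of membrane rafts that are often found in vesicle preparations, fell together in the cytokine groups. FLOT1 was at 160, 159 and 162 CPM in Control, 114, 115 and 115 in TNFα and 118, 126 and 117 CPM in IL-1β libraries. FLOT2 was at 218, 212 and 214, at 153, 150 and 154 and at 184, 180 and 187 CPM in the same groups. None of the cytokine libraries overlapped Control. The log2 fold changes were -0.48 (SE 0.051) and -0.50 (SE 0.047) in TNFα and -0.41 (SE 0.051) and -0.22 (SE 0.046) in IL-1β cells. Neither flotillin passed in the other 6 stimulus comparisons.

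Among Rab GTPases and SNARE proteins, RAB35 was the gene whose rise in TNFα cells passed under all 3 scalings. RAB35, a GTPase of recycling endosomes and the plasma membrane, was at 109, 117 and 115 CPM in Control and 156, 152 and 150 CPM in TNFα libraries (0.42, SE 0.048, edgeR adjusted p = 1.95e-09). In vesicle recipients RAB35 was at 124, 133 and 120 CPM in EV-Control, 109, 114 and 114 in EV-TNFα, 116, 113 and 107 in EV-IL-1β and 110, 111 and 107 CPM in EV-Epinephrine libraries, all 3 groups below EV-Control. The log2 fold changes were -0.17 (SE 0.044), -0.16 (SE 0.045) and -0.20 (SE 0.045), and that of EV-IL-1β did not pass without EV-Control replicate 2 (-0.12) or EV-IL-1β replicate 3 (-0.13). RAB35 was itself higher in EV-Control than in Control (0.14), a call lost with total counts (0.11).

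RAB27A and RAB27B, which act in docking and release of exosomes, passed in few of the stimulus comparisons. RAB27A stayed between 65.8 and 79.6 CPM in all direct libraries, with log2 fold changes of 0.00 (SE 0.057) in TNFα, 0.00 (SE 0.056) in IL-1β, 0.09 (SE 0.056) in C5a and 0.11 (SE 0.056) in epinephrine cells, none of which passed. With total counts the TNFα value was -0.27 and passed (edgeR adjusted p = 0.000106). EV-Epinephrine libraries were at 58.9, 64.9 and 60 CPM and overlapped EV-Control at 64.9, 71 and 70.1 CPM (-0.16, SE 0.056, edgeR adjusted p = 0.0312). This call was lost in 5 of 14 alternatives, with total counts (-0.13) and without EV-Control replicate 2 (-0.14) or 3 (-0.15) or EV-Epinephrine replicate 1 (-0.13) or 3 (-0.15). RAB27B was at 6.98, 6.67 and 8.15 CPM in Control and 11.1, 8.54 and 8.43 CPM in TNFα libraries (0.36, SE 0.15, edgeR adjusted p = 0.0395), and this call was lost with total counts (0.08), with either other filter and without Control replicate 1 (0.33), Control replicate 2 (0.30) or TNFα replicate 1 (0.23).

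RAB11A and RAB11B, GTPases of the recycling endosome, fell in IL-1β cells by 0.22 and 0.21 on the log2 scale, and RAB11B was also lower in EV-IL-1β (-0.16) and EV-Epinephrine cells (-0.22). SNAP23, a plasma membrane SNARE, was at 24.4, 23.8 and 25.6 CPM in Control and 30.4, 29.2 and 37.5 CPM in TNFα libraries (0.40, SE 0.091), a rise that did not pass with total counts (0.12). RAB7A gave 0.11 and VAMP3, a SNARE of recycling vesicles, 0.15 in TNFα cells with TMM factors, and -0.16 and -0.13 with total counts. YKT6, a SNARE that takes part in several fusion steps, passed in none of the 8 stimulus comparisons and had log2 fold changes between -0.12 and 0.01. With total counts it passed in TNFα (-0.32) and IL-1β cells (-0.16).

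IL-1β was also compared with TNFα, and epinephrine with C5a. Between the cytokines 21 of 43 genes differed (48.8%, beside 41.4% of all genes), 2 higher in IL-1β (19.9% of all genes) and 19 lower (21.4%). With total counts 14 were higher and 11 lower. The 3 largest differences were those of CD82 (-1.08, SE 0.06), SMPD2 (-1.0, SE 0.12) and SDCBP (-0.80, SE 0.047), all lower in IL-1β. Both higher genes, SDC1 and FLOT2, and 11 of the lower ones passed under all scalings. Between epinephrine and C5a 5 genes differed (11.6%, beside 17.1%), 3 higher in epinephrine (8.98% of all genes) and 2 lower (8.08%). CD9 (0.34, SE 0.049) and SDCBP (0.29, SE 0.047) were higher in epinephrine cells and SDC1 (-0.19, SE 0.06) was lower, a call lost without C5a replicate 2 or 3 (-0.18 in both).

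Whether a stimulus and the vesicles of cells given it had different effects was tested as an interaction, the log2 response to vesicles minus the log2 response to the stimulus itself. The fit of all 30 libraries tested 44 of the genes. For TNFα 23 genes differed (52.3%, beside 44.7% of all 16691 genes), 5 with a higher vesicle response (21.3% of all genes) and 18 with a lower one (23.4%), and with total counts these were 16 and 7. SDC1 had an interaction of 1.60 (SE 0.079, edgeR adjusted p = 3.71e-26), SMPD2 of -1.71 (SE 0.19, edgeR adjusted p = 9.18e-12) and CD82 of -1.25 (SE 0.073, edgeR adjusted p = 4.88e-22). In each of these 3 the vesicle response did not pass. SDC4 had responses of opposite sign, 0.66 with TNFα and -0.44 with its vesicles, an interaction of -1.10 (SE 0.097, edgeR adjusted p = 6.87e-10). The vesicle value is taken against EV-Control, where SDC4 was 0.44 higher than in Control. EV-TNFα libraries lay around the Control level, and with only the groups compared in the fit the vesicle value did not pass.

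For IL-1β 15 genes differed (34.1%, beside 35.2%), 7 higher (16.9%) and 8 lower (18.3%), and with total counts 16 higher and 5 lower. SDC4 again had responses of opposite sign, 0.71 and -0.45, with an interaction of -1.16 (SE 0.097, edgeR adjusted p = 7.32e-10). The vesicle value is again against the raised EV-Control, and it did not pass with only the groups compared in the fit. Without EV-Control replicate 1 the SDC4 interactions were -0.96 for TNFα and -1.02 for IL-1β. SMPD1 had 0.85 (SE 0.084) and SMPD2 -0.82 (SE 0.19). SMPD1 was lower in EV-Control than in Control, so its vesicle value starts from a lowered level. For C5a 3 genes differed (6.82%, beside 11.9%), all with a higher vesicle response (5.87% of all genes), namely SMPD1 (0.47, SE 0.082), CD9 (0.39, SE 0.062) and CD81 (0.26, SE 0.065). None of the 3 passed in EV-C5a against EV-Control, where CD9 gave -0.04 and CD81 0.00. All 3 fell with C5a itself, and all 3 were lower in EV-Control than in Control (CD9 -0.46, CD81 -0.15). The CD81 call between EV-Control and Control was lost in 4 of 13 alternatives. SDC4 gave 0.21 (SE 0.097), which of 19 alternatives passed without EV-Control replicate 1 (0.34) and with no filter on low counts (0.21). For epinephrine 10 genes differed (22.7%, beside 24.2%), 6 higher (11.7%) and 4 lower (12.5%), and with total counts 11 and 3. CD82 (0.56, SE 0.074), SDC4 (-0.53, SE 0.097) and CHMP6 (0.46, SE 0.13) had the largest values. Interactions over 0.5 in size were found for 10 genes with TNFα (27.2% of all genes), 4 with IL-1β (17.6%), 0 with C5a (4.45%) and 2 with epinephrine (10.8%).

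**Figure D5:**
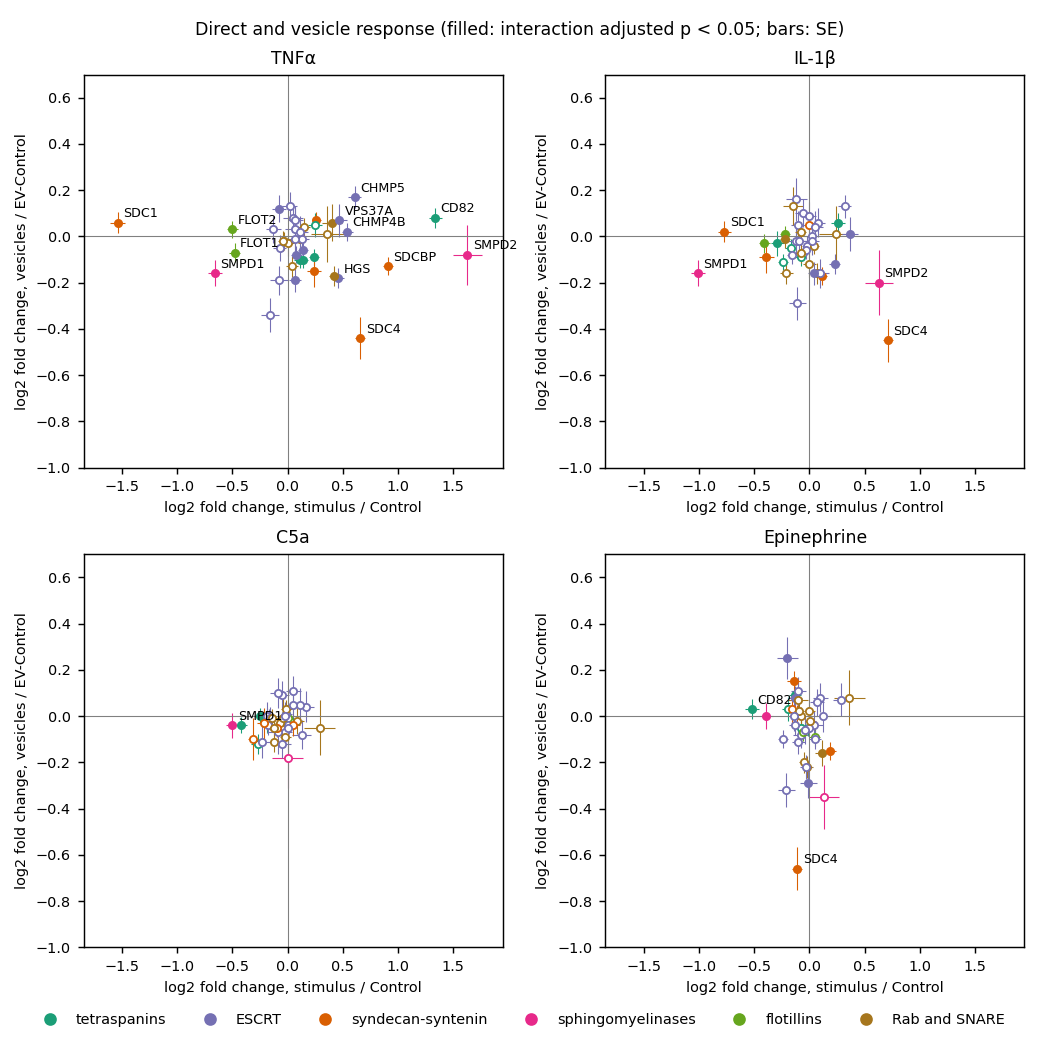
Log2 fold change of each gene of at least 5 CPM with the stimulus (horizontal axis, against Control) and with vesicles from cells given that stimulus (vertical axis, against EV-Control), with SE bars, coloured by family. Filled points have an interaction with an adjusted p under 0.05 in edgeR; in the TNFα and IL-1β panels the wide spread is horizontal, and SDC4 lies at 0.66 and -0.44 and at 0.71 and -0.45. SDC4 was higher in EV-Control than in Control, so its vertical values start from a raised level.

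Vesicles of unstimulated cells were compared with medium alone through EV-Control and Control. Of 44 genes 10 differed (22.7%, beside 21.9% of all genes), 3 higher (12.1% of all genes) and 7 lower (9.8%), and with total counts 2 and 13. CD9 was lower in EV-Control, at 525, 499 and 486 CPM against 702, 675 and 701 CPM, a log2 difference of -0.46 (SE 0.044, edgeR adjusted p = 4.95e-12) that passed under every alternative. SMPD1 was lower by 0.27 (SE 0.058). RAB27B, at 11.8, 8.37 and 9.9 CPM, was higher by 0.46 (SE 0.14), and without EV-Control replicate 1 (0.34) or Control replicate 2 (0.41) it no longer passed. The labels name no vesicle-free control for the vesicle groups other than Control, and what else differed in handling between the vesicle groups and the direct groups is not given in the sources used here.

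A further list of 48 genes of the same pathway, effectors and relatives of the genes above, was read in the same way. Of 45 tested, 35 changed in TNFα (17 higher, 18 lower), which is 77.8% beside 52.7% of all genes. In IL-1β cells 26 changed (7 and 19; 57.8%, beside 46.6%), in C5a cells 7 (0 and 7; 15.6%, beside 22.6%) and in epinephrine cells 14 (4 and 10; 31.1%, beside 25.2%). In vesicle recipients 4 changed in EV-TNFα (1 and 3; 8.89%, beside 13.3%), 7 in EV-IL-1β (2 and 5; 15.6%, beside 14.6%), none in EV-C5a (beside 0.0503%) and 8 in EV-Epinephrine cells (3 and 5; 17.8%, beside 19.7%). Their median absolute log2 fold change in TNFα cells was 0.349, close to the 0.344 of all genes. CHMP1B, an ESCRT-III relative of CHMP1A, had one of the widest ranges. It had means of 102 CPM in Control, 196 in TNFα, 51.5 in IL-1β, 44.4 in C5a and 91.7 CPM in epinephrine cells, with log2 fold changes of 0.94 (SE 0.06), -0.98 (SE 0.063) and -1.19 (SE 0.064) in the first 3 stimuli. Its exons share 553 bases with an antisense gene. In vesicle recipients CHMP1B went from 180 CPM in EV-Control to 128 in EV-TNFα, 122 in EV-IL-1β and 85.6 CPM in EV-Epinephrine cells (-1.07, SE 0.05).

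STX1A, a SNARE of the plasma membrane, was at 6.61, 7.2 and 7.53 CPM in Control, 12.3, 14 and 12.1 in TNFα and 13.4, 11 and 15.9 CPM in epinephrine libraries. In vesicle recipients it was at 16.1, 13.6 and 11.5 CPM in EV-Control and at 7.16, 6.9 and 7.6 in EV-TNFα, 6.69, 7.72 and 8.77 in EV-IL-1β and 6.28, 7.23 and 7.57 CPM in EV-Epinephrine libraries, all below EV-Control (-0.93, -0.83 and -0.97, SE 0.13 in each). As for SDC4, EV-Control replicate 1 was the highest of its group. STX1A shares 662 exon bases with BUD23 on the other strand, and the part of BUD23 in these values was not tested. VAMP2, a SNARE of secretory vesicles, had a mean of 52.3 CPM in Control and fell in all 4 direct groups, to 30.1 in TNFα, 25.6 in IL-1β, 30.9 in C5a and 35.7 CPM in epinephrine cells. Its exons share 430 bases with an annotated gene of the same strand. EXT1, an enzyme that builds the heparan sulphate chains of syndecans, rose in TNFα cells from 130 to 285 CPM (1.13, SE 0.045), and MVB12B, an ESCRT-I subunit, fell in TNFα from 28 to 13.6 CPM (-1.04, SE 0.11) and in IL-1β to 15.9 CPM (-0.81, SE 0.1).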

How the data were processed

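RNA of the 30 libraries was extracted on columns and made into libraries from a small amount of total RNA, per the labels' protocols. The authors deposited raw read counts per Ensembl gene, with no normalization. The submitters' processing notes name STAR, FastQC, DESeq2, R 4.4.1 and hg38, and the counting program, annotation and strand setting are not given in the sources used here. Of 63147 lines, 4 without a gene ID (at most 0.00164% of a library's counts) and 2 genes without counts were left out and 3 repeated IDs kept once. Positions and exon lengths come from GENCODE 29 on GRCh38, promoter windows from RefSeq.

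Counts were filtered with filterByExpr, scaled by TMM factors and tested two-sided in R 4.3.3 with edgeR 4.0.16 (robust quasi-likelihood test, Benjamini-Hochberg over all genes, threshold 0.05) in fits of the 15 direct libraries (15908 genes), the 15 vesicle libraries (15918) and all 30 (16691, for EV-Control against Control and the interactions). The labels give 1 batch. Replicates of a group differed by more than sampling noise (chi-square per gene 2.04 to 12.94). Floors cover counting error only, while each SE comes from the edgeR test and includes the spread between libraries. The labels name no molecular identifiers.

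Named in every case were CD9, CD63, CD81, PDCD6IP, TSG101, SDCBP, SDC4, RAB27A, RAB27B and SMPD3. Beside them stood up to 5 genes per stimulus comparison, or 3 in other comparisons, with the largest change among those passing, at 5 CPM or more in the higher group and without overlap. Other members were described by family after their values were seen. The members and lists were chosen with earlier results of these data known. Alternatives were relative log expression factors, total counts, no filter, a mean count of 50, DESeq2 1.42.0, other sets of libraries, a replicate term, a fold threshold and leaving out each library. The scripts for the tests were checked on simulated counts.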

Additional observations from a re-analysis of the deposited data

Results flagged for a closer look

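Among the genes named by rule, for 22 values the response to vesicles differed from the response to the stimulus itself, by the interaction term in edgeR (vesicle response minus direct response, log2). Under TNFα they were SDC1 (1.60), SMPD2 (-1.71), CD82 (-1.25), SDC4 (-1.10), SDCBP (-1.04), CD9 (-0.33), CD81 (-0.21) and PDCD6IP (-0.15, adjusted p = 0.0397 in edgeR). With total counts the value of CD9 was -0.04, and those of CD81 (0.08) and PDCD6IP (0.14) changed sign. The PDCD6IP call was lost or its sign changed in 11 of 19 alternatives. Under IL-1β they were SDC4 (-1.16), SMPD1 (0.85), SMPD2 (-0.82), SDCBP (-0.27) and CD63 (0.27, adjusted p = 0.0329 in edgeR). The CD63 value lost its call in 9 of 19 alternatives, all leaving out 1 library of Control, IL-1β, EV-Control or EV-IL-1β (0.22 to 0.27). Under C5a they were SMPD1 (0.47), CD9 (0.39) and CD81 (0.26), all lower in EV-Control than in Control and without a call in EV-C5a. Under epinephrine they were CD82 (0.56), SDC4 (-0.53), CHMP6 (0.46), SDCBP (-0.33), RAB27A (-0.27) and CD81 (0.23). The CD81 value lost its call without epinephrine replicate 1 (0.16).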

How the results depend on the processing

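Of 2591 alternatives to the log2 fold changes of single genes, 2440 stayed on their side of the threshold, 95 lost the call, 45 gained one and 11 changed sign with a call under at least one of both settings. Values that passed under neither setting also changed sign in places and are counted among the 2440. All 11 came from scaling by total counts. They were, in TNFα against Control, CD9 (-0.03), CD63 (-0.03), CD81 (-0.16), PDCD6IP (-0.20), TSG101 (-0.20) and RAB27A (-0.27), in IL-1β against TNFα RAB27A (0.19), and in the TNFα interaction CD81 (0.08), PDCD6IP (0.14), TSG101 (0.21) and RAB27A (0.26). This scaling moved the median log2 fold change of all genes to -0.288 in TNFα against Control, to 0.205 in IL-1β against TNFα, to 0.313 in the TNFα and to 0.113 in the IL-1β interaction. In IL-1β against Control it gave 6 higher and 18 lower vesicle genes, in place of 6 and 11.

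Of 244 alternatives to the counts of changed genes, 218 stayed within 1.5 times. A log2 fold change over 0.5 asked for as well left 8 genes in TNFα, 4 in IL-1β, 1 in C5a and 1 in epinephrine against Control, 8 in IL-1β against TNFα, 0 in epinephrine against C5a, 0 in EV-TNFα, 0 in EV-IL-1β, 1 in EV-Epinephrine, 0 in EV-Control against Control, and 10, 4, 0 and 2 in the interactions of TNFα, IL-1β, C5a and epinephrine. Epinephrine against Control gave 11 with relative log expression factors, 11 with total counts, 13 with a mean count of 50 and 12 in a fit of all 30 libraries. EV-TNFα and EV-IL-1β gave 5 each with only the groups compared in the fit. The fewer genes above the fold threshold follow from that threshold, and otherwise the cause was not tested.

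Leaving out 1 library gave counts of 21 to 23 in TNFα, 16 to 18 in IL-1β, 8 to 10 in C5a, 5 to 12 in epinephrine against Control (12 without epinephrine replicate 2), 21 to 22 in IL-1β against TNFα, 3 to 7 in epinephrine against C5a (3 without C5a replicate 3), 6 to 8 in EV-TNFα, 4 to 8 in EV-IL-1β (5 without its replicate 2, 4 without replicate 3), 7 to 10 in EV-Epinephrine and 6 to 8 in EV-Control against Control (6 without EV-Control replicate 1 and 6 without replicate 2). EV-C5a stayed at 0, and the interactions gave 21 to 24, 13 to 16, 3 to 4 and 9 to 14. With the replicate number as a block, the counts were 23, 17, 11 and 8 for the 4 direct stimuli, 8, 9, 0 and 11 for the vesicle groups and 10 for EV-Control against Control. Libraries with the same number showed little shared deviation, with correlations of -0.04 to 0.03. These correlations do not show how the libraries were made. In EV-IL-1β and in EV-Epinephrine against EV-Control all 6 libraries still correlated best with their own number.

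Depth limits mainly SMPD3, CHMP4C and CHMP4A, and SMPD2 and RAB27B rest on fewer counts than the other genes named.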

Other observations

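Some of the vesicle genes overlap neighbours that moved in these data, and the counting strand is not given in the sources used here. VPS36, which passed in no stimulus comparison, shares 357 exon bases with THSD1, whose mean went from 96 CPM in Control to 210 CPM in TNFα cells. RAB27A overlaps PIGB on the other strand, which went from 14.3 to 10.7 CPM. VPS4A overlaps COG8 on the other strand, at 18.2 and 12.1 CPM. SNAP23 overlaps LRRC57, at 28.1 and 24.9 CPM, the opposite direction to that of SNAP23 with TMM factors. The part of these neighbours in the values of the vesicle genes was not tested.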
